A study of Acyrthosiphon pisum with 15 samples.

Results

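The pea aphid, Acyrthosiphon pisum, is a sap-feeding insect whose adults occur with and without wings in both sexes. Described here are 80 gene models whose RNA was lower in winged than in wingless insects of both sexes. They are 80 of the 20657 gene models in the deposited table. They were chosen from the 12 libraries of winged and wingless asexual females and males. The mean over the 15 libraries had to be 100 normalised counts or more, which 12098 gene models reached. On the log2(normalised count + 1) scale, wingless minus winged had to be above 0 in all 6 comparisons, namely males and asexual females of clone F1, of clone I18 and of clone BK11. Among the 12098, 1220 gene models met this condition, and 798 had all 6 differences below 0. The score of a gene model is the smaller of its mean female and mean male difference, and the 80 with the largest score were taken. The wing differences of the members are therefore a description of what was selected and are given without support from any test.

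RNA was sequenced from whole bodies of 30 adults per library. Wingless males, winged males and sexual females were reared at 15 °C under a cycle of 13 h light and 11 h dark. Wingless and winged asexual females were reared at 18 °C under 16 h light and 8 h dark. All were 2 days old except the sexual females, at 2 to 6 days. There is 1 library per morph and clone, and the 3 clones serve as the replicates, so n = 3 per morph. Every spread and p-value therefore holds clone and preparation differences together. Recovered reads ran from 28721904 to 75066116 per library.

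As background, wings arise by different routes in the sexes of this species. Asexual females of a single genotype become winged or wingless in response to crowding and other cues, whereas the winged and wingless forms of males are set by genotype at a locus on the X chromosome. By this background, winged and wingless males of a clone differ in genotype there as well as in wings. The part of that in the male differences was not tested. Winged adults carry flight muscle and disperse, and wingless asexual females put more into bearing live young and hold embryos in their bodies. Sexual females are wingless and lay eggs. The deposited table gives identifiers only. In the gene table used for names, 2 of the 80 members were found, ACYPI50196-RA and ACYPI46913-RA, and neither has a name there beyond its own identifier, so no function is given to any member, and no list of known wing or muscle genes could be described.

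The I18 wingless male library stood apart in a way that touches the members. A group of 40 gene models was chosen after seeing the data for a mean of at least 10000 in asexual females and at most 100 in the F1 and I18 sexual females. Their median level was 106.1% of the asexual female level in the I18 wingless male, against 1.20% and 0.98% in the F1 and BK11 wingless males and 0.53% to 1.54% in the winged males. At the same time 76 male gene models were also high in the I18 wingless male. They were chosen for a mean of at least 1000 in winged males and at most 10 in each of the 9 female libraries. Their median was 316.5%, 253.4% and 88.1% of the winged male mean in the F1, I18 and BK11 wingless males, and 164.0%, 107.1% and 28.6% in the F1, I18 and BK11 winged males. These male genes were thus higher in the wingless than in the winged library of every clone, and lowest in BK11 in both male morphs. The I18 wingless male library thus held both asexual female and male genes at high levels. Whether its contents or its label are other than stated was not tested, and every I18 male value and mean male difference below is to be read with that doubt.

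**Figure D1:**
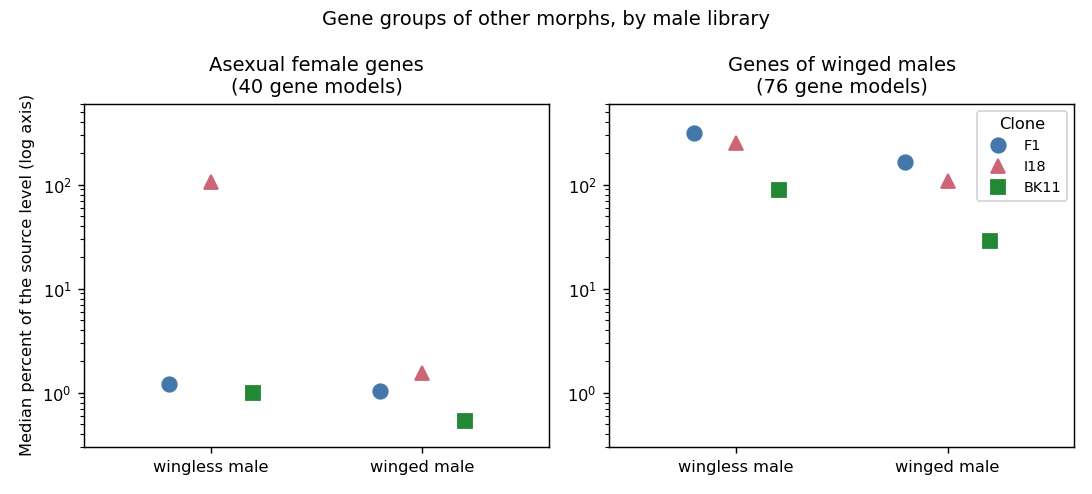
Median level of 40 asexual female gene models (left) and 76 male gene models chosen by their winged male level (right) in each male library, as percent of the mean in asexual females and in winged males, on log axes. The I18 wingless male lies at 106.1% for the asexual female genes, and all other male libraries at 1.54% or less.

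Among the 80 members the score ran from 3.91 to 1.48 with a median of 2.00. The mean female difference ran from 1.49 to 7.50 with a median of 2.39, and the mean male difference from 1.48 to 5.91 with a median of 2.41. For 40 members the male difference was the smaller of the pair, and for the other 40 the female one. Within clones, the median female difference was 3.15 in F1, 2.61 in I18 and 1.81 in BK11, and BK11 gave the smallest of the 3 in 46 members. The median male difference was 2.14 in F1, 2.52 in I18 and 1.92 in BK11. The wing difference of females was thus smallest in BK11 for most members. The winged BK11 female was the highest of the winged asexual females for 56 of the 80, against 41.4% of the 12098 gene models with a mean of at least 100.

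**Figure D2:**
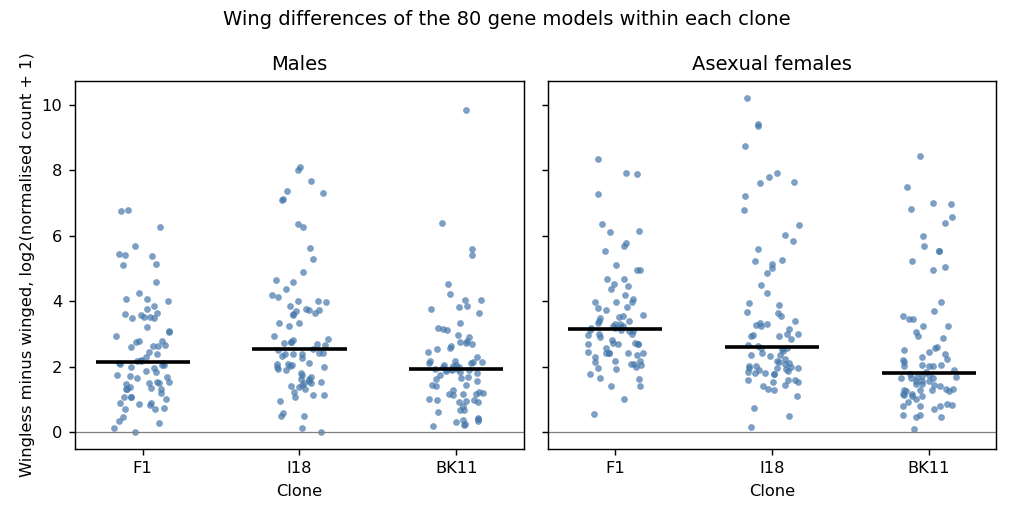
Wingless minus winged difference of each of the 80 gene models within each clone, on the log2(normalised count + 1) scale, for males and for asexual females; bars mark medians. All points lie above 0 by the choice of members, and the medians run from 1.81 to 3.15.

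In asexual females, 32 of the 80 members were called higher in wingless insects by limma with Benjamini-Hochberg adjustment at a threshold of 0.05, against 6.82% of all 20301 gene models tested. Of all gene models called in that comparison, 60.0% were higher in wingless females, against 47.2% with TMM scaling. In males, 3 were called, against 0.177%, and 47 were higher at an unadjusted limma p under 0.05, against 5.71%. All 3 wingless libraries lay above all 3 winged ones for 66 members in females, against 16.4% of those tested, and for 35 members in males, against 6.9%. For 30 members this held in both sexes, against 1.89%. All these counts describe the contrast that chose the members. Leaving out the wingless F1 or the winged I18 female library lowered the 32 to 19 and 18, and omitting a whole clone lowered it to 13 (F1), 11 (I18) and 15 (BK11). The male count was 1 without the I18 wingless male and 7 with clone as a replicate block.

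Differences that did not take part in a choice were obtained by applying the same rule to 2 clones and reading the clone left out. The minimum mean still came from all 15 libraries. With F1 left out, 76 of the 80 gene models then chosen were higher in the wingless F1 female, against 54.3% of the 12098, and 73 were higher in the wingless F1 male, against 49.7%. With I18 left out, 78 were higher in the wingless I18 female and 77 in the wingless I18 male, against 53.1% and 52.1%. The I18 male value includes the library described above, which also entered the choices made with F1 or BK11 left out. With BK11 left out, 52 were higher in the wingless BK11 female, against 55.8% of the 12098, and 65 in the wingless BK11 male, against 59.2%. The median difference left out was 3.04 in females and 1.73 in males for F1, 2.57 and 2.00 for I18, and 1.14 and 1.33 for BK11. Both sexes of the clone left out were higher in wingless for 69 (F1), 75 (I18) and 43 (BK11) of the 80. Of the 12098, this held for 28.4%, 28.5% and 34.5%. The choice thus carried over to both sexes of F1 and I18 in most gene models, but to both sexes of BK11 in 43 of 80. In BK11 females alone the share was closer to that of all gene models. Each count comes from 1 wingless and 1 winged library per sex, and the gene models counted share these libraries, so they are not replicates. No test was made of these counts.

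ACYPI000012-RA had the largest score. In males it stood at 7503, 6258 and 6806 normalised counts in the wingless F1, I18 and BK11 libraries, against 170.5, 1093 and 497.4 in the winged ones. In asexual females it stood at 49691, 20597 and 3919 in the wingless libraries, against 210.3, 186.8 and 794.1 in the winged ones. The groups did not overlap in either sex, and the female gap was narrowest in BK11. ACYPI34143-RA followed with a score of 3.51. It stood at 3514, 2308 and 3164 in wingless and 30.8, 550.6 and 1000.2 in winged males, and at 6142, 5554 and 4479 in wingless and 38.6, 24.2 and 1611 in winged asexual females. Here too the BK11 winged female was far above the other winged females, yet below all wingless ones. ACYPI21942-RA, with a score of 3.40, stood at 1544, 495.2 and 161.8 in wingless and 19.2, 47.9 and 106.0 in winged males. In asexual females it stood at 4687, 2590 and 659.7 in the wingless libraries, against 66.5, 67.6 and 159.8 in the winged ones. Its gap was narrowest in BK11 in both sexes.

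ACYPI008635-RA and ACYPI009505-RA were the members called in both sexes. ACYPI008635-RA stood at 678.7, 1238 and 1892 in wingless and 73.1, 93.1 and 43.5 in winged males, and at 16361, 6449 and 19813 in wingless and 1151, 850.7 and 2370 in winged asexual females. The difference was 4.11 ± 0.52 (SE) in males and 3.27 ± 0.52 in females. ACYPI009505-RA, named after its values were seen, had the tightest replicates of the pair, at 1177, 1026 and 1264 in wingless and 193.6, 270.0 and 195.7 in winged males. The third member called in males, ACYPI53910-RA, also named after its values were seen, is a gene of males, at 314.0, 2821 and 42.8 in wingless and 6.41, 9.31 and 1.36 in winged males and at 0 to 4.30 in every female library.

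At the end of the list, ACYPI009883-RA had the smallest score of the members, 1.482, and ACYPI001904-RA and ACYPI003179-RA fell just outside with 1.481 and 1.480. ACYPI007860-RA, ACYPI006232-RA and ACYPI21579-RA stood just inside with 1.494, 1.492 and 1.491. ACYPI006232-RA stood at 189.5, 413.2 and 75.1 in wingless and 115.4, 39.9 and 55.7 in winged males, so its male groups overlapped and its male difference rested on I18. ACYPI001904-RA, outside, stood at 19.5, 363.2 and 23.1 in wingless and 10.3, 7.98 and 20.4 in winged males, with the same clone on top. ACYPI21579-RA is a gene of males, at 1374, 667.8 and 305.1 in wingless and 551.3, 198.2 and 114.1 in winged males and at 0 to 5.95 in all females. ACYPI007860-RA had 360.6, 510.6 and 1015 in sexual females, against 69321, 58054 and 73875 in wingless and 20362, 21582 and 30261 in winged asexual females.

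Without the I18 wingless male library, the mean male difference of the members ran from 0.57 to 5.46 with a median of 2.11, and for 18 of the 80 it fell below the score of the last member. The rule applied without that library kept 64 of the 80. In 8 members the I18 wingless male was at least 10-fold above both other wingless males, as was the case for 3.17% of the 12098. These 8, a set defined after seeing the values, had a median of 32080 in the I18 wingless male, against 99.3 in the F1 and 139.8 in the BK11 one. In wingless asexual females their median was 8411, 14422 and 4790 in F1, I18 and BK11. ACYPI083726-RA, named after its values were seen, stood at 15.6, 31608 and 28.9 in wingless males, 14.1, 122.4 and 6.79 in winged males, and 11.2, 1.92 and 165.3 in sexual females. Among asexual females it stood at 16274, 31636 and 3069 in the wingless libraries and 1362, 3038 and 2866 in the winged ones. Its level in the I18 wingless male was that of the I18 wingless asexual female. ACYPI006046-RA stood at 6.49, 19093 and 5.78 in wingless males and 6.41, 121.0 and 0 in winged males, so that apart from I18 its male difference was between values of a few reads. The median male wing difference of the 8 was 0.80 in F1, 7.20 in I18 and 2.06 in BK11, beside 0.17, 5.84 and 0.84 for the 40 asexual female gene models, 3 of which are among the 8. The part of the asexual female signal of that library in these members was not tested.

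**Figure D3:**
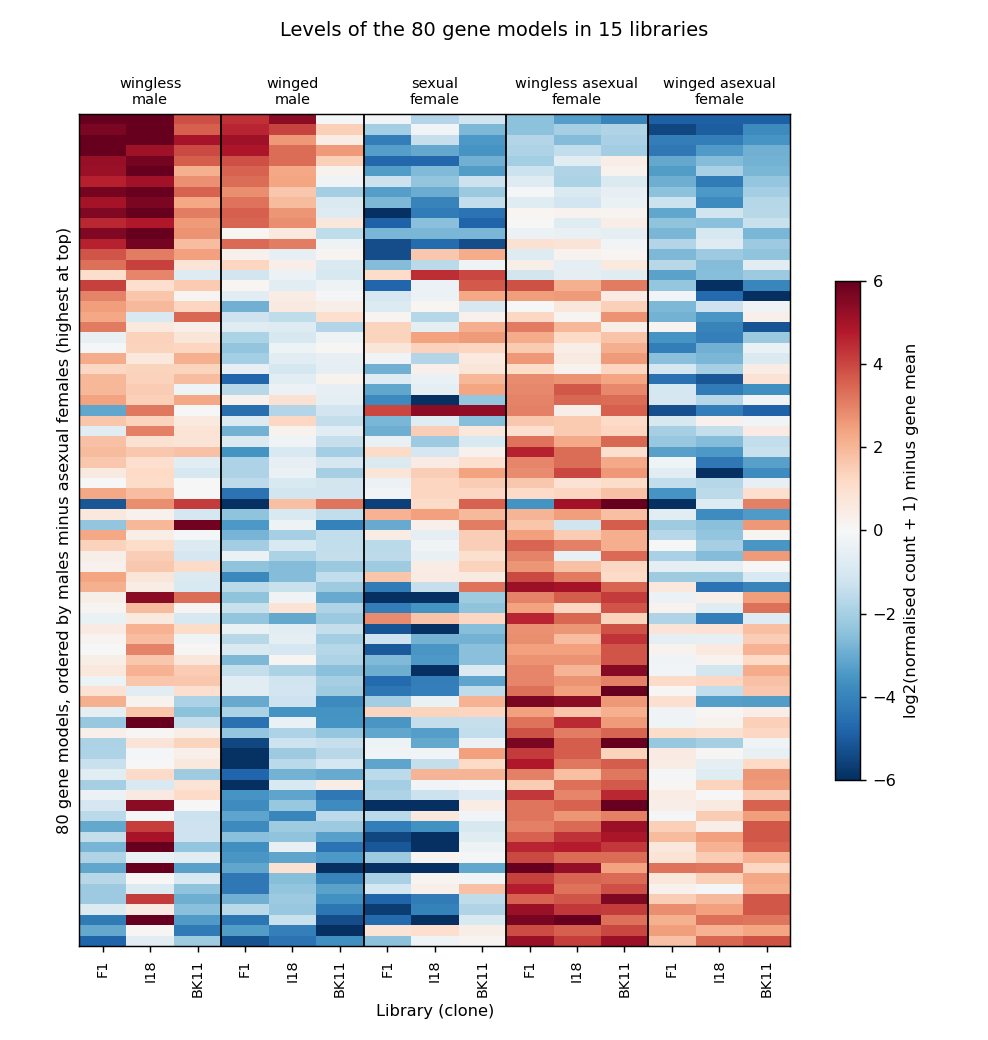
Levels of the 80 gene models (rows) in the 15 libraries (columns), as log2(normalised count + 1) minus the mean of the gene model; colours are limited to −6 and 6. Rows are ordered by males minus asexual females, with the 16 called higher in males towards the top and the 32 called lower near the bottom. The 8 members at least 10-fold higher in the I18 wingless male than in the others show as isolated dark red cells in its column.

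Sexual females took no part in the wing differences that chose the members, and entered the choice only through the minimum mean over all 15 libraries. They were set against the midpoint of wingless and winged asexual females on the log2 scale. That midpoint is made of libraries the choice used, and it lies below the wingless level of every member, so sexual females level with wingless asexual females count as higher. Of the 80 members, 35 were lower in sexual females and 5 higher (limma, adjusted p threshold 0.05). Over all 20301 gene models tested, 23.2% were lower and 27.3% higher, and over the 12098 with a mean of at least 100, 26.7% were lower and 36.2% higher. The median log2 difference was −1.28 for the members, against 0.02 for all tested and 0.24 for those with a mean of at least 100. Sexual females differed from asexual ones in day length, temperature and age range too, and in whole bodies fewer cells of a type cannot be told apart from less RNA per cell. The choice also asked for agreement among clones, which affects the spread behind these calls. Some of the 35 met the minimum mean of 100 only through asexual females, so their direction was largely set by the choice. ACYPI47738-RA, named after its values were seen, is such a member, at 16.9, 85.2 and 48.2 in sexual females and under 100 in every male library. Of the 35, 4 were higher in males than in asexual females and stood at low levels in all females. The mean log2 level of sexual females was at or below that of winged asexual females for 38 members, between the asexual morphs for 36, and at or above that of wingless asexual females for 6. Over the 1220 gene models with all 6 wing differences above 0, the shares were 30.4%, 30.1% and 39.5%. Beside males, reared alike, sexual females were at or below winged males for 37 members, between for 25 and at or above wingless males for 18, and the shares over the 1220 were 21.4%, 6.56% and 72.1%. The 37 at or below winged males include the 13 members under 100 in every female library. These met the minimum mean of 100 only through male libraries, so their place was largely set by the choice. The members were chosen for wide gaps between wingless and winged insects, which by itself leaves more room in between. No test was made of these counts.

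Among members called lower in sexual females, ACYPI006046-RA and ACYPI003649-RA had the most negative differences. ACYPI006046-RA stood at 0, 0 and 6.51 in sexual females, against 5258, 2538 and 343.3 in wingless and 617.9, 584.7 and 152.7 in winged asexual females, with a log2 difference of −8.67 ± 2.19 (limma adjusted p = 0.0045). This call was lost without clone F1 (limma adjusted p = 0.082). ACYPI003649-RA stood at 80.5, 7.05 and 2205 in sexual females, against 42882, 72766 and 109050 in wingless and 13641, 20103 and 48275 in winged asexual females (−8.49 ± 1.52, limma adjusted p = 0.00038). Its BK11 sexual female stood far above the other sexual females. Among sexual females, BK11 held the top value in 51 of the 80 members, against 31.7% of the 12098, and the 40 asexual female gene models had a median of 1.49% of the asexual female level there.

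The 5 members higher in sexual females were ACYPI000953-RA, ACYPI21378-RA, ACYPI005083-RA, ACYPI003753-RA and ACYPI060629-RA, the last pair named after their values were seen. ACYPI000953-RA stood at 6048, 15394 and 14888 in sexual females, 3068, 470.3 and 4453 in wingless and 8.58, 20.0 and 11.96 in winged asexual females. It was thus high in both wingless female morphs and near absent from winged females, with a log2 difference of 6.12 ± 1.14 against the asexual mean (limma adjusted p = 0.00049). ACYPI21378-RA stood at 300.7, 3018 and 2231 in sexual females, against 63.4, 91.3 and 83.6 in wingless and 14.3, 22.5 and 29.9 in winged asexual females (4.91 ± 0.77, limma adjusted p = 0.00012). ACYPI060629-RA was an abundant member whose sexual females matched wingless asexual females in level, at 78490, 101896 and 71313 in sexual females, 76230, 106879 and 64965 in wingless and 11602, 1345 and 1730 in winged asexual females. Its difference of 2.41 is thus from the midpoint, beside a female wing difference of 4.75, and that of ACYPI003753-RA was 2.90 beside 4.99. The count of 5 was 8 without the winged F1 female, 9 without clone F1 and 3 without clone I18.

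**Figure D4:**
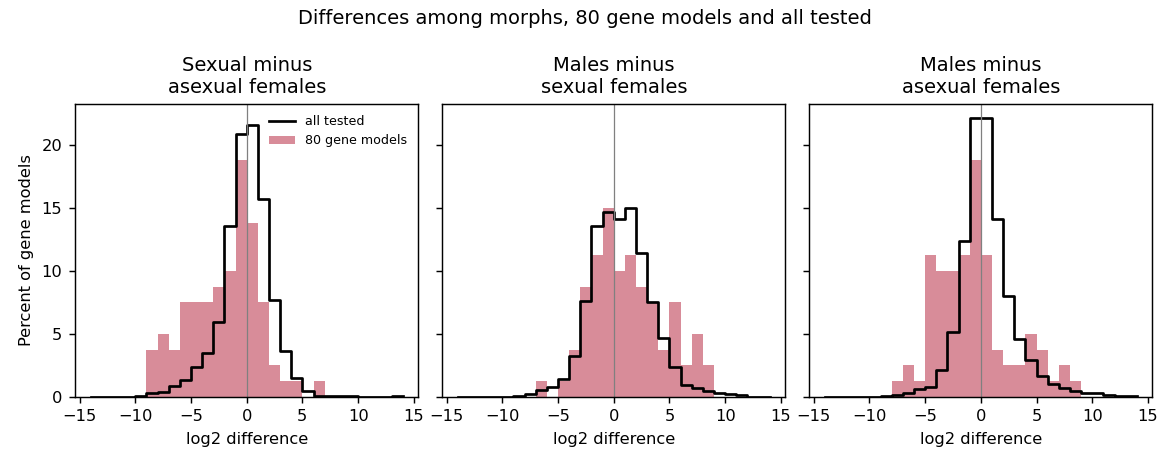
Distribution of log2 differences of the 80 gene models (bars) and of all 20301 tested (line), in percent of gene models per unit of log2, for 3 comparisons; bars on the left of each panel are gene models lower in the group named first. The members lie further left than all tested gene models in sexual minus asexual females, with medians of −1.28 and 0.02.

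Males of both forms were next set against sexual females, reared alike. Of the members 29 were higher in males and 15 lower, against 36.8% and 28.9% of all tested and 32.5% and 42.7% of the 12098. The higher count is close to the share among all gene models. It includes 13 members under 100 in every female library, ACYPI48691-RA and ACYPI44265-RA among them. These met the minimum mean of 100 only through male libraries, so their direction was largely set by the choice. The median difference was 0.92 for the members, 0.57 for all tested and −0.28 for the 12098. Without the I18 or the BK11 sexual female, or without clone BK11, the 15 became 9, 8 and 8. The largest increase was that of ACYPI48691-RA, at 3571, 5878 and 636.8 in wingless and 920.5, 484.1 and 43.5 in winged males and at 0, 3.20 and 2.60 in sexual females (8.34 ± 0.92, limma adjusted p = 3.8e-06). ACYPI44265-RA followed, at 962.9, 2101 and 142.1 in wingless and 419.2, 335.2 and 31.3 in winged males, with a single read among all sexual females (limma adjusted p = 3.4e-06). ACYPI000953-RA was the lowest in males, at 41.5, 3295 and 369.8 in wingless and 15.4, 110.4 and 164.4 in winged males, with a log2 difference of −6.14 ± 1.14 against the sexual female values above (limma adjusted p = 0.00033). ACYPI45119-RA was also lower, at 6.49, 63.2 and 2.31 in wingless and 5.13, 2.66 and 0 in winged males, against 107.7, 123.0 and 78.1 in sexual females (−4.15 ± 0.77, limma adjusted p = 0.00034). Its male wing difference was 0.29 in F1, 4.13 in I18 and 1.73 in BK11. Both of its BK11 male values lay below 3 reads of their library, so this difference rested mainly on the I18 wingless male.

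Set against the mean of asexual females, 16 members were higher in males and 32 lower. Of the members, 13 were under 100 in every female library, all of them among the 16. These met the minimum mean of 100 only through male libraries, so their being higher in males was largely set by the choice. Over all tested the shares were 32.5% higher and 25.3% lower, and over the 12098 they were 29.1% and 37.3%, so the 32 lie near the share found for gene models of this abundance. This comparison is the sum of the preceding comparisons and shares their libraries. Without clone F1 the 32 became 21. ACYPI003547-RA had the largest fall, at 3.89, 84.0 and 30.0 in wingless and 2.56, 5.32 and 9.51 in winged males, against 4857, 2427 and 4732 in wingless and 459.1, 1446 and 1892 in winged asexual females (−7.40 ± 0.68, limma adjusted p = 7.2e-07). ACYPI45119-RA, at the male values above, stood at 932.0, 756.0 and 997.6 in wingless and 348.3, 262.7 and 320.1 in winged asexual females (−6.51 ± 0.63, limma adjusted p = 1.2e-06). In both, the I18 library was the highest wingless male. Both members were under 100 in every male library and met the minimum mean of 100 only through female libraries. Their being lower in males was thus largely set by the choice.

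The median of the morph means of the 16 members higher in males was 1064 in wingless males, 204.6 in winged males, 4.91 in sexual females, 23.0 in wingless asexual females and 4.47 in winged asexual females. Some were higher in females than these medians, with sexual female means of 1850 for ACYPI21378-RA and 199.96 for ACYPI22398-RA and a wingless asexual female mean of 134.6 for ACYPI41430-RA, the last pair named after their values were seen. Mean levels in wingless asexual females ran from 2.39 to 134.6, so the female wing difference of the 16 lay between low levels. In the contrasts that chose them, all 3 wingless libraries lay above all 3 winged ones for 16 of the 16 in females and for 3 in males. Over all tested the shares were 16.4% and 6.9%. Some of these female gaps were of a few reads. ACYPI53343-RA, named after its values were seen, counts among them at 1.98 in the wingless and 1.67 in the winged I18 female. Both values lie below 3 reads of their library. BK11 was the lowest of the wingless males in 16 and of the winged males in 14. Within clones, the median male wing difference of the 16 was 1.81 in F1, 3.40 in I18 and 2.24 in BK11. For the 76 male gene models described above, none of them a member, it was 0.93, 1.23 and 1.55, above 0 in all 3 clones for 72 of the 76. BK11 was the lowest of the wingless males in 72 of them. The difference was largest in I18 for the 16 by their median and in BK11 for the 76, and the sign of the members' differences was fixed by the choice. The part of the wider group's difference in theirs was not tested.

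ACYPI073040-RA and ACYPI005083-RA differed most between males and asexual females. Both are among the 13 members under 100 in every female library, so this direction was largely set by the minimum mean. ACYPI073040-RA stood at 5419, 7619 and 1274 in wingless and 2595, 1799 and 290.8 in winged males, and at 18.3, 25.8 and 29.7 in wingless and 1.43, 2.50 and 6.52 in winged asexual females (7.67 ± 0.64, limma adjusted p = 2.9e-07). ACYPI005083-RA stood at 2255, 6079 and 433.4 in wingless and 616.7, 1226 and 25.8 in winged males, at 4.30, 1.98 and 0.90 in wingless asexual females and at 0 in all winged asexual females (limma adjusted p = 1.6e-06). The floor of 3 reads corresponds to 1.63 to 5.95 normalised counts depending on the library, so its female wing difference lay close to the limit of detection.

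**Figure D5:**
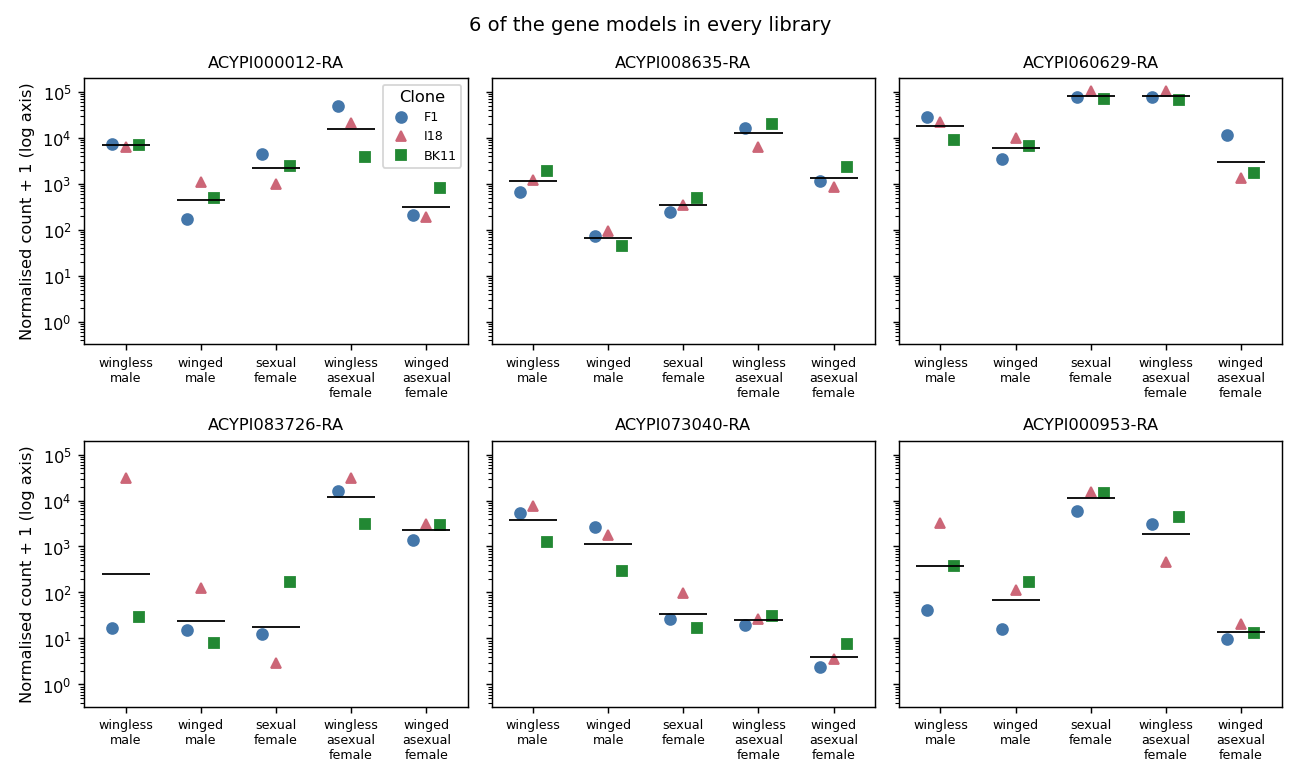
Normalised count plus 1 of 6 members in every library, on log axes, with points by clone and bars at the mean of the log values. ACYPI083726-RA is high in a single wingless male, ACYPI073040-RA is high in males and lowest in BK11 there, and ACYPI000953-RA is high in sexual and wingless asexual females and at 8.58 to 20.0 in winged ones.

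A further set of 8 members, defined after seeing the values, had the F1 winged female at least 4-fold above both other winged females. Of the 12098 gene models, 58 had this pattern. The 8 were ACYPI085855-RA, ACYPI084075-RA, ACYPI080518-RA, ACYPI080313-RA, ACYPI061541-RA, ACYPI088495-RA, ACYPI080456-RA and ACYPI060629-RA. Their median was 1091 in the winged F1 female, 63.0 in I18 and 36.7 in BK11, against 11692, 13640 and 3174 in the wingless asexual females of those clones. In males the wing difference was largest in F1 for all 8, at a median level of 5687, 2371 and 1129 in wingless and 490.4, 739.5 and 534.1 in winged males. In sexual females the BK11 library was the highest for 7 of the 8. After removal of the morph means, their levels over the 15 libraries correlated with each other with a median r of 0.81 over 28 pairs, from 0.51 to 0.95, beside a median of 0.24 over all pairs of members. These correlations come from a set chosen for a shared feature and share libraries. An example, named after its values were seen, is ACYPI085855-RA, at 1952, 530.1 and 119.0 in wingless and 55.1, 188.9 and 31.3 in winged males, and at 22780, 19556 and 2770 in wingless and 899.0, 45.0 and 42.9 in winged asexual females.

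Clone means differed in 4 of the 80 members by the limma F test with morph accounted for, against 7.05% of all tested. The choice used differences within clones and left the mean levels of clones free. ACYPI082228-RA was at 32.4, 7925 and 21373 in wingless and 3.85, 4070 and 10744 in winged males of F1, I18 and BK11. It was at 22.5, 2530 and 13451 in sexual females, 96.7, 38397 and 122419 in wingless and 2.15, 676.4 and 9484 in winged asexual females (limma adjusted p = 7.1e-08). F1 was lowest and BK11 highest in all 5 morphs, while wingless stood above winged in each clone. ACYPI004807-RA was lowest in I18 in every morph, with 807.2, 83.0 and 1755 in the wingless male libraries. Its limma adjusted p was 0.0032, and its call was lost without clone I18 or BK11 (limma adjusted p = 0.085 and 0.23). The count of 4 was 2 with a pseudocount of 0.5, 8 with DESeq2, and 1 to 2 without any single clone.

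The members spanned a wide range of abundance, with means over all libraries from 102.2 to 106312 and a median of 1829, against 1290 for the 12098. ACYPI066082-RA and ACYPI009006-RA were the most abundant. ACYPI066082-RA stood at 51471, 152241 and 79312 in wingless and 27761, 22692 and 13408 in winged males, 989.1, 556.8 and 6118 in sexual females, 240317, 225540 and 517031 in wingless and 62671, 66018 and 128558 in winged asexual females. Its wingless and winged groups did not overlap in either sex, and sexual females lay below them all, with a log2 difference of −6.71 ± 0.61 against asexual females (limma adjusted p = 1.3e-06). ACYPI009006-RA had the same order of morph means, with 577.0, 1712 and 3385 in sexual females, against 105851, 105676 and 255622 in wingless and 21761, 28146 and 81715 in winged asexual females (−5.60 ± 0.69, limma adjusted p = 1.8e-05). It stood at 18544, 151020 and 19782 in wingless and 10323, 9523 and 5725 in winged males. In both members wingless males were above winged asexual females in I18 only, through the library in doubt, and below them in F1 and BK11.

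Of the members found in the gene table, ACYPI50196-RA stood at 164.8, 583.0 and 753.5 in wingless and 9.0, 133.0 and 190.2 in winged males, 514.2, 540.1 and 3298 in sexual females, 11029, 7515 and 1534 in wingless and 837.5, 640.6 and 449.0 in winged asexual females. It was lower in males than in asexual females (−3.44 ± 0.77, limma adjusted p = 0.0016). ACYPI46913-RA showed narrow male groups, at 307.6, 327.3 and 330.5 in wingless and 93.6, 62.5 and 87.0 in winged males, and passed in neither comparison with asexual females (limma adjusted p = 0.69 for males and 0.51 for sexual females). ACYPI002186-RA and ACYPI065871-RA, named after their values were seen, stayed within 0.86 of each other on the log2 scale in every library, for example at 40015, 26418 and 24953 and at 38714, 25312 and 24825 in wingless asexual females. Whether they share reads was not tested, and they may count as 1 member.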

How the data were processed

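The authors deposited signal values, here called normalised counts, that are reads per gene model over a library-specific scale factor, with no scaling by length. Per the submitters' processing notes DESeq2 was used; no version is named. For the aligner, counter, strand setting, genome build and annotation, nothing was given in the sources used here. All values were whole multiples (100%, tolerance 0.001 of a read) of the smallest positive value of their library, which gave the reads. Tests used limma 3.58.1 in R 4.3.3 on log2(value + 1), all 15 libraries, 5 morph means and a mean-dependent prior variance, for the 20301 gene models with at least 10 in at least 3 libraries (all 80 members; 356 left out). P-values were adjusted over all of them by Benjamini and Hochberg. The code was tested on simulated data. edgeR 4.0.16 (quasi-likelihood) and DESeq2 1.42.0 on the recovered reads, with clone as a replicate block, other pseudocounts, filters and scalings and left-out libraries were alternatives. Libraries are paired by clone, although winged and wingless males of a clone differ at the X locus named above. Deviations of libraries of a clone from the morph means correlated at 0.13 to 0.64 across genes, over 30 pairs.

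Members, rules and tests were chosen with earlier results of these data known. Named were the members with the 4 largest and the 4 smallest scores, the 2 next gene models, the 2 largest and 2 smallest called differences per comparison, the 2 smallest clone p-values, the members in the gene table (61 of 20657 identifiers were found there) and the 2 most abundant; others are marked as named after their values were seen. Planned gene lists needed product names and were not used. A planned list of sexual female genes held 1 gene model. It stood at 40.5% of the sexual female level in the I18 wingless male and 0.998% to 2.97% in the other male libraries. A planned list of male genes held 4, with at most 0.0077% of the male level in any asexual female.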

Additional observations from a re-analysis of the deposited data

How the results depend on the processing

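Over all alternatives, 27 to 36 members were lower in sexual than in asexual females, 21 to 32 higher and 8 to 16 lower in males than in sexual females, and 12 to 17 higher in males than in asexual females. Members lower in males than in asexual females numbered 21 without clone F1 and 21 to 33 over left-out libraries and clones. Members lower in males than in sexual females numbered 8 to 16 when libraries or clones were left out, with 8 without clone BK11 and 9 without 4 doubted libraries. Members higher in sexual than in asexual females numbered 3 to 9, with 9 without clone F1 and 3 without clone I18. Members differing among clones numbered 2 with a pseudocount of 0.5, 8 with DESeq2, 7 without the 4 doubted libraries and 1 to 6 when libraries or clones were left out. The doubted libraries are the I18 wingless male, the BK11 wingless and winged males and the BK11 sexual female. After seeing the data, 6 gene models were chosen with at least 10000 in sexual females and at most 100 in asexual females. Their median was 0.46% and 1.26% of the sexual female level in the BK11 wingless and winged males. In the other male libraries it was 0.0025% to 0.020%. The source of this signal was not tested.

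Members called higher in wingless than in winged males numbered 5 with a pseudocount of 8, 0 with only the groups compared or without the 4 doubted libraries, 1 with edgeR, 28 with DESeq2, and 0 to 5 when libraries or clones were left out. With clone as a replicate block they numbered 7, and 1 when the I18 wingless male was also left out, an alternative added after seeing the data. The block gave 37 in females, and moved no other count of calls by over 1.5 times. The female count was 11 to 34 when libraries were left out, with 13, 11 and 15 without clones F1, I18 and BK11, 19 without the wingless F1 female and 18 without the winged I18 female. The rule kept 42 of the 80 members without clone BK11 and 59 to 77 under the others. TMM scaling moved the median of all gene models by −0.14 in sexual minus asexual females and by −0.11 in males minus asexual females and in wingless minus winged asexual females. On the recovered reads edgeR called 10209 gene models in sexual minus asexual females, against 10242 by limma. The cause of these shifts was not tested. Values near the floor of 3 reads limit what can be read from differences. They include the female values of members high in males and some male values of ACYPI45119-RA and ACYPI003547-RA.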
